A study of Macaca mulatta with 33 samples.

Results

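These 94 genes of the rhesus monkey corpus luteum went up and then down, though not all of them came back to the untreated level. After 1 day of human chorionic gonadotropin (hCG) their levels were at least 0.8 log2 units above untreated tissue, and after 6 days of hCG they were at least 0.8 log2 units lower again. They were selected on the measured values of 12 arrays. The mean of untreated replicates 1 to 4 (a), the mean of the 4 day 10 arrays with hCG alone (b) and the mean of day 15 hCG replicates 1, 2, 4 and 5 (c) had to give b - a of at least 0.8, c - b of -0.8 or less, and b of at least 7. Where a gene had several probe sets, the brightest on average in the 33 arrays stood for it. Of 14132 genes with a single symbol, 8466 had b of at least 7, and 212 of these also had b - a of at least 0.8. Of the 212, 100 were within 0.8 log2 units of their day 10 level at day 15, and 6 were higher by at least 0.8. Of those that came down by at least 0.8, 12 were set aside by name or by symbol family and 94 remained. Of the 94, 83 have a gene name and 11 carry only a LOC symbol.

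Luteal tissue of adult female rhesus macaques were profiled on Affymetrix Rhesus arrays, 33 in all, in 7 groups that the labels give. Baseline tissue was taken on luteal day 10 with no treatment (8 arrays). Rising doses of hCG, which imitate the signal of early pregnancy, began on day 9, and tissue was taken on day 10 or on day 15. All other groups had hCG. At day 10, 4 arrays each had hCG with trilostane (TRL) and R5020, hCG with TRL, and hCG alone. At day 15 the numbers were 4, 4 and 5 in the same order. TRL blocks 3-beta-hydroxysteroid dehydrogenase, which converts pregnenolone to progesterone, and R5020 is a progestin given to replace what is lost. Untreated tissue of day 15 was not analysed here, so days of hCG and luteal age cannot be told apart. The labels do not say whether each sample came from its own animal, so the p-values speak of the spread among samples, which may be technical. The RNA came from whole tissue, in which fewer cells of a type and less RNA per cell cannot be told apart.

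The array names place the samples in 3 sets, and each array number sits in 1 set only. Set 1 (16 arrays) holds every array used to choose the genes and the 4 day 10 hCG+TRL arrays. Set 2 (14 arrays) holds untreated replicates 6 to 9, the 4 day 10 hCG+TRL+R5020 arrays and 3 day 15 arrays each of hCG+TRL+R5020 and hCG+TRL. Set 3 holds 1 day 15 array of each treatment. The day 15 replicate 4 arrays of hCG+TRL+R5020 and hCG+TRL were near-identical (SD of their difference 0.192 over probe sets), as were day 15 hCG replicates 3 and 5 (0.201), while the next closest pair of the series reached 0.318. None of these 4 arrays is in set 2. Replicate 5 entered the choice of the genes. With replicate 3 in its place 99 genes met the rule, all 94 among them, but a swap of near-identical arrays could change little. Without replicate 5, 102 genes met the rule, 93 of the 94 among them. The mean of 9 luteal steroidogenic marker genes lay between 11.47 and 12.2 log2 units in every array, and no marker of that list was below the median of all values, 6.18. Levels are log2 intensities and were compared between arrays for 1 probe set at a time, since the brightness of different probe sets cannot be ranked.

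Chorionic gonadotropin acts on the luteal cell through the luteinizing hormone receptor, a G protein-coupled receptor that raises cyclic AMP. Kinases and transcription factors below it change steroid synthesis, secretion and survival, and many of their target genes respond fast and then return. Regulators of G protein signalling and other feedback proteins are among the genes known for such short responses, and progesterone itself acts on luteal cells through its own nuclear receptor. The groups with TRL, with and without R5020, ask which parts of the response to hCG go with steroids and with progestin.

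In the arrays that chose them, the 94 genes were a median of 1.15 log2 units higher with 1 day of hCG than in untreated tissue (range 0.8 to 2.89). At day 15 they were a median of 1.34 lower than at day 10, with a difference of -1.34 (range -3.73 to -0.81). Both values follow from the selection and carry no test. The choice also favours gaps between these arrays. All 4 hCG arrays of day 10 lay above all 4 of untreated replicates 1 to 4 for 77 of the 94 genes (81.9%, background 7.63%). Where single arrays are compared below, those that chose the genes serve as description only. The rule set no limit on day 15 against untreated tissue, but both of these means entered it. The values that follow are therefore a description, and no such count was made over all genes. With hCG alone 69 of the 94 ended below untreated replicates 1 to 4 and 25 above them, with a median difference of -0.13 (range -1.88 to 1.3). Their day 10 level with hCG had a median of 9.7. Just inside the cutoffs were PRICKLE2 (b - a of 0.801), TMEM120A (c - b of -0.806) and MAN1A1 (b - a of 0.807). Just outside were PHLDA1 (c - b of -0.8, short of the cutoff by 0.0001), TUBA4A (b - a of 0.786) and OTULINL (b - a of 0.779). Of the members, 52 have other probe sets of the same symbol. Of the 67 such probe sets above the filter on low values, 51 went up and came down as the chosen one did, 39 of them by at least 0.8 each way. These changes, and those of other probe sets given below, come from the arrays that chose the genes. They are a description, and no share over all probe sets was counted.

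The arrays of a group were not all alike. As a mean deviation over the 94 genes (each array's value minus the gene's mean over 33 arrays), the untreated arrays lay between -0.36 and 0.04. The values of untreated replicates 1 to 4 and of hCG alone follow from the selection. At day 10 the hCG+TRL+R5020 arrays read 0.74, 0.55, 0.88 and 0.09, the hCG+TRL arrays 0.93, 0.07, 0.88 and 0.24, and the hCG arrays 1, 0.93, 1.11 and 1.12. Replicate 4 of hCG+TRL+R5020 and replicates 2 and 4 of hCG+TRL thus lay close to the untreated range, and the other 5 arrays with TRL at day 10 lay well above it. At day 15 every array lay below every untreated array or within their range, between -0.88 and -0.42 with hCG+TRL+R5020, between -0.91 and -0.55 with hCG+TRL and between -0.7 and -0.33 with hCG alone. The mean deviation over all genes stayed between -0.05 and 0.04 in every array. In the hCG+TRL arrays of day 10 the luteal steroidogenic markers averaged 12.05, 11.84, 12.05 and 11.91 and the macrophage markers 9.22, 9.48, 8.94 and 9.93, so replicates 2 and 4 had the lower luteal and the higher macrophage values. In replicates 2 and 4 the pericyte, fibroblast, lymphocyte and cycling cell markers were also higher than in the other hCG+TRL arrays, and the red cell markers lower. The endothelial, neutrophil and surface epithelium markers did not separate these replicates. In the day 10 hCG+TRL+R5020 arrays the luteal markers averaged 12.07, 12.1, 12.15 and 12.14 and the macrophage markers 9.19, 9.3, 9.5 and 9.04. There replicate 4, the array close to the untreated range, had the lowest macrophage value. The part of these markers in the differences between these arrays was not tested.

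**Figure D1:**
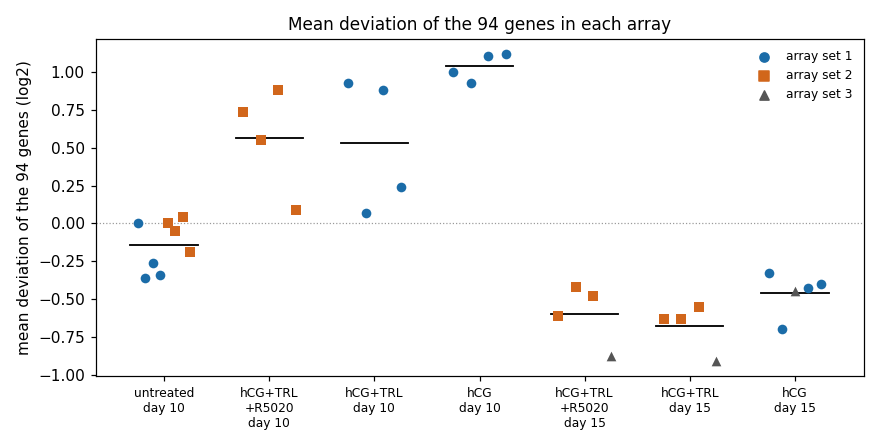
Mean deviation of the 94 genes in each array, in log2 units, by group on the horizontal axis (days of hCG increase from left to right). Points are arrays, coloured by array set, and bars are group means. The hCG arrays of day 10 lie between 0.93 and 1.12, the day 10 arrays with TRL spread from 0.07 to 0.93, and all day 15 arrays lie at or below -0.33. The set 1 arrays of untreated tissue and of hCG alone chose the genes.

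Array set 2 was not used to choose the genes, and it holds both days of the hCG+TRL+R5020 treatment with 4 untreated arrays. It therefore offers a test of the same up-and-down course in other arrays, in tissue that also had TRL and R5020. All 94 genes passed the filter on low values, which counts arrays of all 3 sets, the choosing ones included. Within set 2, 91 genes exceeded the median of all values in 4 or more arrays, and AURKC, NUDT16 and SDC2 in 3. One limma fit of the 14 arrays, with Benjamini-Hochberg adjustment over 28917 probe sets, gave all set 2 values below. The comparisons share arrays with each other. Each difference is given with its standard error (n = 4 hCG+TRL+R5020 arrays and 4 untreated arrays at day 10, and n = 3 arrays in each group at day 15).

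At day 10, 9 of the 94 genes were significantly higher with hCG+TRL+R5020 than in untreated tissue, which is 9.57% of them, against a background of 0.352% of all 10504 genes tested. None was significantly lower by limma (background 0.362%). At an unadjusted p under 0.05 by limma, 50 genes were higher and 1 lower, against 1206 of all 10504 genes in either direction. The differences of 85 genes were above 0 and those of 9 below, with a median of 0.60, where all genes had a median of 0.01. The 9 genes were the lipid transporter gene MFSD2A, the histidine-degrading enzyme gene HAL, the sterol enzyme gene HSD17B7, MIA2, RNF214, DOCK5, the sarcomere gene MYOM1, NIBAN2 (log2 difference 0.84 ± 0.17, adjusted p = 0.048) and DESI2 (1.07 ± 0.22, adjusted p = 0.049). The 2 other DESI2 probe sets above the filter were not higher with hCG alone at day 10 (-0.11 and -0.22 against untreated replicates 1 to 4). The other NIBAN2 probe set above the filter was 0.25 higher with hCG alone at day 10, and its difference from day 10 to day 15 was -0.67. The count depended on single arrays. It was 0 without hCG+TRL+R5020 replicate 3, 1 without replicate 1, 2 without replicate 2, 3 without untreated replicate 6, 1 without untreated replicate 9 and 14 without untreated replicate 7. No marker gene of 10 cell type lists passed the test in this comparison, and 8 of 9 fibroblast markers (median 0.24) and 7 of 9 luteal steroidogenic markers (median 0.17) were above 0. The luteal marker mean was 12.07 to 12.15 in the hCG+TRL+R5020 arrays against 11.52 to 11.97 in the untreated arrays of set 2, without overlap, and its part in the result was not tested.

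At day 15, 27 of the 94 genes had fallen below their day 10 level under hCG+TRL+R5020, or 28.7% of them, against a background of 0.942%. By limma none had risen (background 0.514%). At an unadjusted p under 0.05 by limma, 80 were lower and 0 higher, against 1628 of all 10504 genes in either direction. All 94 differences were below 0, from -3.09 to -0.11, with a median of -0.98 where all genes had a median of 0. The largest falls that passed were those of HAL, DAPL1, MYOM1, TDRD9, TFPI2 and ADA. They fell in 12 of 13 role groups. In the other, transcription, none of 5 genes passed, though their median of -0.97 was close to that of the 94. The count was 45 without day 10 replicate 4 of hCG+TRL+R5020. It was 16, 17 and 15 without day 10 replicates 1, 2 and 3, and 12 without day 15 replicate 1. The luteal marker mean was 11.47 to 11.95 at day 15 against 12.07 to 12.15 at day 10, and 2 of its 9 genes were lower (HSD3B2 and NR5A2). All 7 markers of cycling cells were below 0 with none passing (median -0.82), and all 10 macrophage markers were above 0 with none passing (median 0.56). The part of these markers in the result was not tested.

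**Figure D2:**
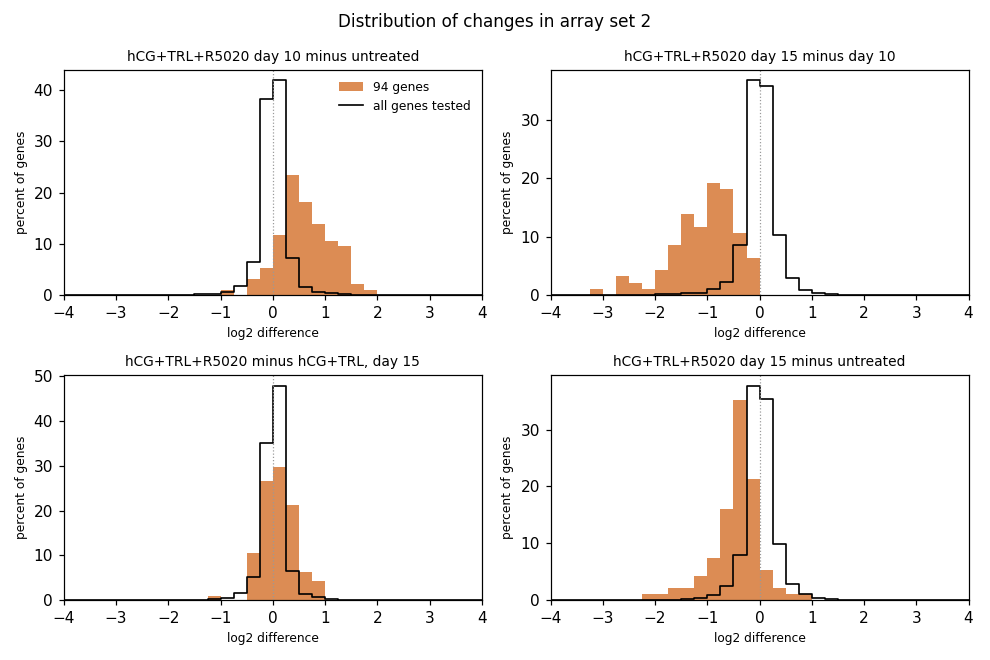
Distribution of log2 differences in array set 2, as percent of genes in bins of 0.25, for the 94 genes (filled) and all genes tested (line), in 4 comparisons. The 94 genes are shifted up at day 10 (median 0.60) and down between the days (median -0.98). For R5020 against none at day 15 their median of 0.09 is near that of all genes (0.02). A larger percent of the 94 than of all genes lies more than 0.25 from 0 there, on either side.

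Genes of lipid and steroid metabolism numbered 7. In set 2, 2 of them rose at day 10, 1 fell between the days, and all 7 were above 0 and then below 0. MFSD2A read between 6.83 and 7.11 in the 8 untreated arrays (median 7.03). MFSD2A at day 10 read 8.84, 8.31, 8.72 and 7.67 with hCG+TRL+R5020, 9.40, 7.93, 8.95 and 7.54 with hCG+TRL, and 8.64, 9.33, 9.17 and 9.96 with hCG alone. MFSD2A at day 15 read 6.33, 6.42, 6.44 and 6.20 with hCG+TRL+R5020, 6.25, 6.30, 6.40 and 6.20 with hCG+TRL, and 6.10, 6.41, 6.39, 6.65 and 6.46 with hCG alone. MFSD2A carries lysophosphatidylcholine with long-chain fatty acids across membranes. All 12 treated arrays of day 10 were above all 8 untreated arrays, and every day 15 array was below them, the arrays that chose the genes included. In set 2 MFSD2A was higher with hCG+TRL+R5020 at day 10 than in untreated tissue, by 2.56-fold (log2 difference 1.36 ± 0.20, adjusted p = 0.015). The call of MFSD2A ended without day 10 hCG+TRL+R5020 replicate 3 (adjusted p = 0.052). MFSD2A was lower at day 15 than at day 10 with hCG+TRL+R5020, by 3.97-fold (log2 difference -1.99 ± 0.21, adjusted p = 0.0009).

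HSD17B7 read between 10.34 and 11.28 in the 8 untreated arrays (median 10.57). HSD17B7 at day 10 read 11.96, 11.87, 12.16 and 12.04 with hCG+TRL+R5020, 12.74, 11.68, 12.36 and 12.40 with hCG+TRL, and 11.92, 12.23, 12.53 and 12.78 with hCG alone. HSD17B7 at day 15 read 11.27, 11.72, 11.08 and 11.99 with hCG+TRL+R5020, 11.37, 11.95, 11.70 and 12.01 with hCG+TRL, and 11.72, 10.68, 11.37, 11.88 and 11.36 with hCG alone. HSD17B7 is a 17-beta-hydroxysteroid dehydrogenase that also reduces ketosteroids in cholesterol synthesis. All 12 treated arrays of day 10 lay above the untreated arrays, and of the 13 day 15 arrays 10 lay above them too and 3 within their range. The arrays that chose the genes are among these. In set 2 HSD17B7 was higher with hCG+TRL+R5020 at day 10 than in untreated tissue, by 2.38-fold (log2 difference 1.25 ± 0.20, adjusted p = 0.019). The call of HSD17B7 ended without untreated replicate 6 or 9 or day 10 hCG+TRL+R5020 replicate 1 or 3 (adjusted p from 0.05 to 0.067). With hCG+TRL HSD17B7 was higher at day 15 than in untreated tissue, by 1.89-fold (log2 difference 0.92 ± 0.21, adjusted p = 0.023). The call of HSD17B7 ended without untreated replicate 6 or 9 or day 15 hCG+TRL replicate 2 or 3 (adjusted p from 0.058 to 0.11). No other of the 94 genes was higher at day 15 than in untreated tissue in either test.

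ACOT6 read between 9.27 and 10.00 in the 8 untreated arrays (median 9.63). ACOT6 at day 10 read 9.90, 10.09, 9.57 and 9.65 with hCG+TRL+R5020, 10.00, 9.61, 10.76 and 9.69 with hCG+TRL, and 10.59, 10.61, 10.70 and 10.50 with hCG alone. ACOT6 at day 15 read 9.55, 9.18, 9.21 and 9.48 with hCG+TRL+R5020, 9.10, 8.90, 8.91 and 8.83 with hCG+TRL, and 8.81, 9.07, 9.29, 8.84 and 8.72 with hCG alone. ACOT6 belongs to the acyl-CoA thioesterases, which release fatty acids from coenzyme A. In set 1, whose untreated arrays and arrays with hCG alone chose the genes, the day 10 hCG arrays did not overlap the untreated arrays. In set 2 the day 10 arrays overlapped the untreated arrays, with a log2 difference of 0.03. With hCG+TRL ACOT6 was lower at day 15 than in untreated tissue, by 1.74-fold (log2 difference -0.80 ± 0.15, adjusted p = 0.0081). The others of the group were SPTLC3, a subunit of the enzyme that starts sphingolipid synthesis, ACSF2, DHRS11 and DHRS13. Their set 2 differences at day 10 were between 0.42 and 0.74, and none passed.

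Enzymes of amino acid, purine, cofactor and redox metabolism numbered 9. In set 2, 1 rose at day 10 and 4 fell between the days, and all 9 were above 0 and then below 0. HAL read between 7.03 and 8.07 in the 8 untreated arrays (median 7.56). HAL at day 10 read 9.43, 9.30, 9.17 and 8.70 with hCG+TRL+R5020, 9.22, 8.74, 9.97 and 9.19 with hCG+TRL, and 9.51, 9.09, 9.52 and 8.96 with hCG alone. HAL at day 15 read 5.82, 6.51, 5.83 and 5.45 with hCG+TRL+R5020, 5.22, 6.06, 5.58 and 5.61 with hCG+TRL, and 6.81, 5.60, 6.23, 6.32 and 6.20 with hCG alone. HAL, histidine ammonia-lyase, starts the breakdown of histidine. All 12 treated arrays of day 10 lay above the 8 untreated arrays, and all day 15 arrays lay below them, the arrays that chose the genes included. In set 2 HAL was higher with hCG+TRL+R5020 at day 10 than in untreated tissue, by 2.76-fold (log2 difference 1.47 ± 0.23, adjusted p = 0.019). The call of HAL ended without untreated replicate 9 or day 10 hCG+TRL+R5020 replicate 1, 2 or 3 (adjusted p from 0.06 to 0.066). HAL was lower at day 15 than at day 10 with hCG+TRL+R5020, by at least 7.81-fold, counted from the median of all values (log2 difference -3.09 ± 0.25, adjusted p = 0.00012). With hCG+TRL HAL was lower at day 15 than in untreated tissue, by at least 2.82-fold, counted from the median of all values (log2 difference -2.06 ± 0.25, adjusted p = 0.0012). At day 15 HAL was lower with hCG+TRL+R5020 than in untreated tissue, by at least 2.82-fold, counted from the median of all values (log2 difference -1.62 ± 0.25, adjusted p = 0.011). The call of HAL ended without day 15 hCG+TRL+R5020 replicate 1 (adjusted p = 0.054).

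ADA read between 8.90 and 10.95 in the 8 untreated arrays (median 10.11). ADA at day 10 read 11.95, 11.98, 11.73 and 10.44 with hCG+TRL+R5020, 12.13, 12.20, 12.85 and 11.94 with hCG+TRL, and 11.36, 11.39, 11.89 and 11.61 with hCG alone. ADA at day 15 read 9.38, 9.22, 9.55 and 8.27 with hCG+TRL+R5020, 9.59, 8.90, 10.26 and 8.37 with hCG+TRL, and 9.26, 8.90, 9.94, 9.26 and 10.06 with hCG alone. ADA, adenosine deaminase, turns adenosine into inosine. The 4 hCG+TRL arrays of day 10 all lay above the 4 arrays with hCG alone. Replicate 4 of hCG+TRL+R5020 stood apart from its group. ADA was lower at day 15 than at day 10 with hCG+TRL+R5020, by 4.41-fold (log2 difference -2.14 ± 0.48, adjusted p = 0.049). The call of ADA ended without untreated replicate 6 or 8, day 10 hCG+TRL+R5020 replicate 1, 2 or 3, day 15 hCG+TRL replicate 1, 2 or 3 or day 15 hCG+TRL+R5020 replicate 1, 2 or 3 (adjusted p from 0.051 to 0.16). Of its other 2 probe sets above the filter, 1 was 1.41 higher with hCG alone and 1 was 0.02 higher.

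MOCOS read between 8.43 and 9.57 in the 8 untreated arrays (median 8.69). MOCOS at day 10 read 10.11, 9.60, 10.15 and 9.18 with hCG+TRL+R5020, 10.17, 10.03, 10.34 and 9.57 with hCG+TRL, and 10.57, 10.41, 10.43 and 10.92 with hCG alone. MOCOS at day 15 read 7.99, 8.44, 9.22 and 7.48 with hCG+TRL+R5020, 7.98, 7.93, 9.19 and 7.52 with hCG+TRL, and 8.46, 9.06, 8.87, 8.66 and 9.18 with hCG alone. MOCOS puts sulfur on the molybdenum cofactor that xanthine dehydrogenase and aldehyde oxidase need. At day 10 in set 2 it was higher by 1.06 log2 units and at day 15 its difference from day 10 was -1.21, and neither passed the test. OSGIN1 (-1.62 ± 0.31 between the days, adjusted p = 0.026) and NUDT16, a nucleotide hydrolase, fell as well. NUDT16 was above the median of all values in only 3 arrays of set 2, all of day 10, and its fall is a lower bound of at least 1.2-fold. ALAD, an enzyme of heme synthesis, GSTM3, a glutathione transferase, ASRGL1 and NTAQ1 did not pass, with differences between the days of -0.88, -0.58, -0.58 and -0.64.

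**Figure D3:**
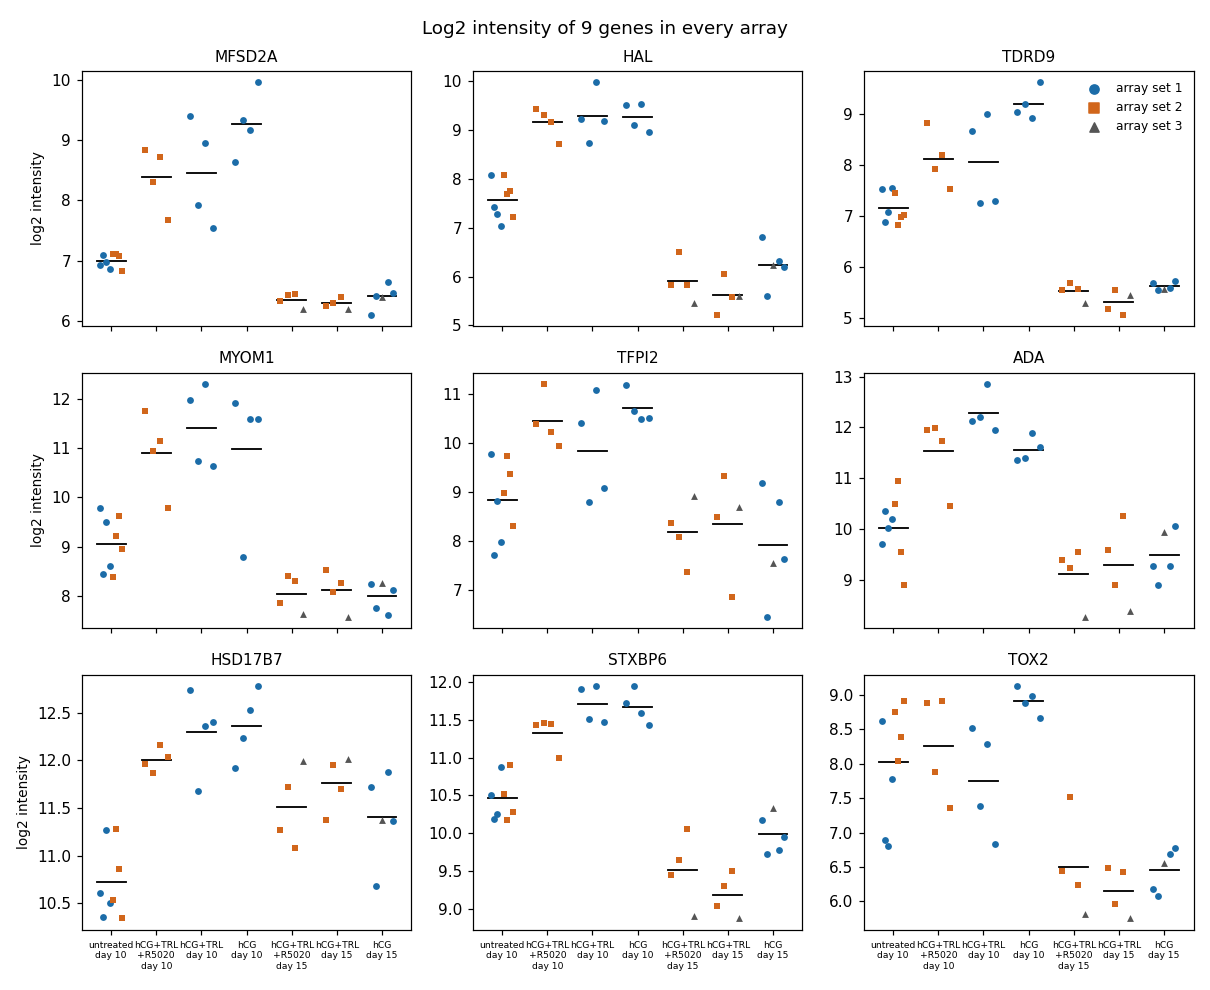
Log2 intensity of 9 genes in all 33 arrays, by group with days of hCG increasing from left to right. Points are arrays, coloured by array set, and bars are group means. MFSD2A, HAL and HSD17B7 lie above the untreated arrays in all 12 treated arrays of day 10. At day 15 MFSD2A, HAL and TDRD9 lie below all 8 untreated arrays, and HSD17B7 does not.

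Genes of G protein, kinase and calcium signalling numbered 12. In set 2, 1 rose at day 10 and 4 fell between the days, with all 12 above 0 at day 10 (median 0.62). SHC4 read between 5.68 and 6.97 in the 8 untreated arrays (median 6.35). SHC4 at day 10 read 7.53, 6.53, 6.94 and 6.75 with hCG+TRL+R5020, 7.10, 6.40, 7.11 and 7 with hCG+TRL, and 7.84, 8.70, 6.98 and 8.76 with hCG alone. SHC4 at day 15 read 5.64, 5.36, 6.16 and 5.99 with hCG+TRL+R5020, 5.43, 5.65, 5.32 and 5.39 with hCG+TRL, and 6.40, 5.49, 5.89, 5.88 and 5.15 with hCG alone. SHC4 is an adaptor that links receptor tyrosine kinases to RAS. All 4 hCG arrays of day 10 and 3 of 4 hCG+TRL arrays lay above all 8 untreated arrays, as did 1 of 4 hCG+TRL+R5020 arrays. In set 2 its differences were 0.49 at day 10 and -1.22 between the days, and neither passed.

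DOCK5 read between 10.10 and 10.64 in the 8 untreated arrays (median 10.54). DOCK5 at day 10 read 11.51, 11.41, 11.67 and 11.02 with hCG+TRL+R5020, 11.78, 11.51, 11.89 and 11.93 with hCG+TRL, and 11.55, 11.80, 11.31 and 11.30 with hCG alone. DOCK5 at day 15 read 10.25, 10.85, 10.75 and 10.15 with hCG+TRL+R5020, 10.38, 10.42, 10.79 and 10.11 with hCG+TRL, and 10.78, 10.02, 10.85, 10.65 and 10.80 with hCG alone. DOCK5 activates the small GTPase RAC. All 12 treated arrays of day 10 lay above all 8 untreated arrays, the arrays that chose the genes included. In set 2 DOCK5 was higher with hCG+TRL+R5020 at day 10 than in untreated tissue, by 1.95-fold (log2 difference 0.96 ± 0.17, adjusted p = 0.036). The call of DOCK5 ended without untreated replicate 6, 8 or 9 or day 10 hCG+TRL+R5020 replicate 1, 2 or 3 (adjusted p from 0.063 to 0.1). Its difference between the days was -0.79, which did not pass. Of its other 2 probe sets above the filter, 1 was 1.06 higher with hCG and 1 was 0.14 higher.

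UNC119 read between 10.61 and 10.97 in the 8 untreated arrays (median 10.84). UNC119 at day 10 read 11.41, 11.17, 11.67 and 10.61 with hCG+TRL+R5020, 11.56, 10.46, 11.43 and 10.75 with hCG+TRL, and 11.74, 11.83, 11.93 and 11.81 with hCG alone. UNC119 at day 15 read 9.93, 9.86, 9.90 and 9.51 with hCG+TRL+R5020, 9.68, 10.10, 10.04 and 9.51 with hCG+TRL, and 9.79, 10.32, 9.94, 10.18 and 10.06 with hCG alone. UNC119 is a carrier of lipid-modified signalling proteins. With hCG alone all day 10 arrays were above all untreated arrays, and at day 15 every array was below them, the arrays that chose the genes included. UNC119 was lower at day 15 than at day 10 with hCG+TRL+R5020, by 2.5-fold (log2 difference -1.32 ± 0.19, adjusted p = 0.0077). With hCG+TRL UNC119 was lower at day 15 than in untreated tissue, by 1.99-fold (log2 difference -0.99 ± 0.19, adjusted p = 0.0097). At day 15 UNC119 was lower with hCG+TRL+R5020 than in untreated tissue, by 2.05-fold (log2 difference -1.04 ± 0.19, adjusted p = 0.019). The call of UNC119 ended without untreated replicate 6 or 8 or day 15 hCG+TRL+R5020 replicate 1, 2 or 3 (adjusted p from 0.05 to 0.076).

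RGS2, which shortens G protein signals, averaged 11.96 ± 0.35 in the 8 untreated arrays (SD). At day 10 it averaged 13.24 ± 0.39 with hCG+TRL+R5020, 13.65 ± 0.23 with hCG+TRL and 13.26 ± 0.19 with hCG alone (SD, n = 4 each). Its set 2 differences of 1.43 at day 10 and -1.33 between the days did not pass. RASD1, a RAS-like regulator of G protein signals, had a day 10 difference of 1.42 with hCG+TRL+R5020. At day 15 its differences from untreated tissue were 0.86 with hCG+TRL+R5020 and 0.065 with hCG+TRL, and none of these passed. Those that fell between the days, besides UNC119, were PRKCA, the protein kinase C alpha gene (-1.26 ± 0.24, adjusted p = 0.025), the cyclin-dependent kinase gene CDK16 (-0.96 ± 0.19, adjusted p = 0.028) and CIB2, a calcium-binding protein gene (-0.82 ± 0.18, adjusted p = 0.047). NFATC4, a calcineurin-controlled transcription factor, STK3, a kinase of the Hippo pathway, RCAN2, a calcineurin regulator, and GPR34, a receptor for lysophospholipids, did not pass in any of the 5 comparisons.

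Secreted or extracellular proteins numbered 12. In set 2 none passed at day 10, where 9 were above 0 and 3 below, and 3 fell between the days. TFPI2 read between 7.71 and 9.76 in the 8 untreated arrays (median 8.90). TFPI2 at day 10 read 10.39, 11.19, 10.22 and 9.93 with hCG+TRL+R5020, 10.40, 8.79, 11.07 and 9.08 with hCG+TRL, and 11.18, 10.65, 10.49 and 10.50 with hCG alone. TFPI2 at day 15 read 8.37, 8.08, 7.36 and 8.91 with hCG+TRL+R5020, 8.48, 9.33, 6.85 and 8.69 with hCG+TRL, and 9.18, 6.46, 7.56, 8.79 and 7.63 with hCG alone. TFPI2 is a secreted inhibitor of serine proteases of the extracellular matrix. The day 10 arrays with hCG alone or with R5020 lay above all untreated arrays, and hCG+TRL replicates 2 and 4 lay among them. TFPI2 was lower at day 15 than at day 10 with hCG+TRL+R5020, by 5.64-fold (log2 difference -2.50 ± 0.50, adjusted p = 0.033). The call of TFPI2 ended without day 10 hCG+TRL+R5020 replicate 1, 2 or 3 or day 15 hCG+TRL+R5020 replicate 1, 2 or 3 (adjusted p from 0.072 to 0.09). Of its 4 other probe sets, 2 followed it with rises of 2.09 and 1.9 under hCG alone, and 2 did not move (0.06 and -0.03).

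PTX3, a pentraxin of innate immunity that in mice also holds the cumulus matrix together, fell between the days (-1.10 ± 0.24, adjusted p = 0.044) though it was not higher at day 10 in set 2 (0.09). ENPP3, an ectoenzyme that cleaves nucleotides, fell as well (-1.44 ± 0.23, adjusted p = 0.011). IGF1, the insulin-like growth factor gene, averaged 10.28 ± 0.35 in the 8 untreated arrays (SD). At day 10 IGF1 averaged 10.97 ± 0.21 with hCG+TRL+R5020, 11.45 ± 0.66 with hCG+TRL and 11.64 ± 0.37 with hCG alone (SD, n = 4 each), and its set 2 differences of 0.76 and then -1 did not pass. CPM, a membrane carboxypeptidase, the proteoglycan gene SDC2, VNN1, a pantetheinase, SUSD4 and APCDD1, an inhibitor of WNT signalling, were above 0 at day 10. C1QTNF1, ODAM and PXDNL were below 0 (-0.05, -0.13 and -0.40), and none had a call. The rise of PXDNL under hCG alone rests on untreated replicate 2. Untreated replicates 1 to 4 read 8.16, 4.27, 8.51 and 8.09, and the day 10 hCG arrays 7.36, 8.46, 7.95 and 8.52. At day 15 with hCG alone, PXDNL read 4.49 in replicate 2 and 8.55 in replicate 5. SDC2 was split at day 10 with hCG alone (9.63, 5.08, 9.46 and 5.76).

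Vesicle transport and glycosylation gave 8 genes. In set 2, 1 of 5 vesicle genes rose at day 10 and 2 fell between the days, and of 3 glycosylation genes 1 fell. MLPH read between 7.60 and 8.52 in the 8 untreated arrays (median 8.06). MLPH at day 10 read 9.74, 8.89, 9.57 and 8.45 with hCG+TRL+R5020, 9.42, 9.63, 9.83 and 9.64 with hCG+TRL, and 9.37, 10.34, 9.59 and 9.98 with hCG alone. MLPH at day 15 read 7.34, 7.40, 8.12 and 6.40 with hCG+TRL+R5020, 8.00, 6.18, 7.60 and 6.81 with hCG+TRL, and 8.74, 7.85, 7.62, 7.82 and 7.62 with hCG alone. MLPH, melanophilin, ties RAB27 vesicles to myosin. The hCG and hCG+TRL arrays of day 10 lay above all untreated arrays without overlap. In set 2 its differences of 1.07 at day 10 and -1.54 between the days did not pass.

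STXBP6 read between 10.17 and 10.91 in the 8 untreated arrays (median 10.40). STXBP6 at day 10 read 11.43, 11.46, 11.45 and 11 with hCG+TRL+R5020, 11.91, 11.52, 11.95 and 11.48 with hCG+TRL, and 11.72, 11.95, 11.60 and 11.44 with hCG alone. STXBP6 at day 15 read 9.44, 9.65, 10.05 and 8.90 with hCG+TRL+R5020, 9.04, 9.30, 9.50 and 8.87 with hCG+TRL, and 10.17, 9.72, 10.34, 9.78 and 9.95 with hCG alone. STXBP6 binds the SNARE proteins that fuse vesicles with the membrane. All 12 treated arrays of day 10 lay above all 8 untreated arrays, the arrays that chose the genes included. STXBP6 was lower at day 15 than at day 10 with hCG+TRL+R5020, by 3.08-fold (log2 difference -1.62 ± 0.20, adjusted p = 0.0021). With hCG+TRL STXBP6 was lower at day 15 than in untreated tissue, by 2.28-fold (log2 difference -1.19 ± 0.20, adjusted p = 0.0042). Of the other 2 probe sets above the filter, 1 was 1.35 higher with hCG alone and 1 was 0.06 higher.

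MIA2 read between 9.34 and 10.97 in the 8 untreated arrays (median 10.35). MIA2 at day 10 read 11.02, 11.24, 11.67 and 11.46 with hCG+TRL+R5020, 11.86, 10.81, 11.79 and 12.11 with hCG+TRL, and 12.17, 11.94, 11.47 and 11.18 with hCG alone. MIA2 at day 15 read 9.83, 9.43, 10.22 and 9.13 with hCG+TRL+R5020, 9.60, 9.81, 10.34 and 9.53 with hCG+TRL, and 10.69, 9.91, 10.14, 10.00 and 10.12 with hCG alone. MIA2 helps load large cargo at exit sites of the endoplasmic reticulum. In set 2 the 4 treated arrays of day 10 lay above the 4 untreated arrays. In set 2 MIA2 was higher with hCG+TRL+R5020 at day 10 than in untreated tissue, by 2.71-fold (log2 difference 1.44 ± 0.25, adjusted p = 0.027). The call of MIA2 ended without untreated replicate 9 or day 10 hCG+TRL+R5020 replicate 1, 2, 3 or 4 (adjusted p from 0.05 to 0.087). MIA2 was lower at day 15 than at day 10 with hCG+TRL+R5020, by 2.88-fold (log2 difference -1.52 ± 0.27, adjusted p = 0.02). The call of MIA2 ended without day 10 hCG+TRL+R5020 replicate 3 or day 15 hCG+TRL+R5020 replicate 1 or 2 (adjusted p from 0.057 to 0.081). Of its 5 other probe sets above the filter, 2 followed it under hCG alone (rises of 0.99 and 1.12) and 3 did not (0.26, 0.35 and -0.07). RAB3IP, an activator of RAB8, was -0.21 at day 10 and MICALL1, a recycling endosome protein, 0.09.

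GCNT1 read between 6.24 and 8.00 in the 8 untreated arrays (median 7.07). GCNT1 at day 10 read 8.36, 7.84, 7.67 and 7.79 with hCG+TRL+R5020, 7.93, 7.40, 8.38 and 8.60 with hCG+TRL, and 8.07, 8.63, 7.97 and 8.16 with hCG alone. GCNT1 at day 15 read 5.99, 6.23, 6.12 and 5.34 with hCG+TRL+R5020, 6.58, 6.05, 6.86 and 5.34 with hCG+TRL, and 6.99, 6.29, 7.37, 7 and 6.93 with hCG alone. GCNT1 adds the branch that makes core 2 O-glycans. Of the 12 treated arrays of day 10, 6 lay above the highest untreated array, which is in set 1, and within set 2 the day 10 groups did not overlap. GCNT1 was lower at day 15 than at day 10 with hCG+TRL+R5020, by at least 3.31-fold, counted from the median of all values (log2 difference -1.80 ± 0.24, adjusted p = 0.0049). ST3GAL4, a sialyltransferase, and MAN1A1, a mannosidase of N-glycan trimming, were 0.60 and 0.77 higher at day 10 and lower by -0.90 and -0.86 after it, none with a call.

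Genes of cell adhesion, polarity and the cytoskeleton numbered 8. In set 2, 1 rose at day 10 and 2 fell between the days, and 6 were above 0 at day 10. CLMP read between 9.21 and 10.79 in the 8 untreated arrays (median 10.14). CLMP at day 10 read 11.86, 11.46, 11.64 and 9.75 with hCG+TRL+R5020, 11.79, 10.90, 12.18 and 10.88 with hCG+TRL, and 12.08, 11.27, 11.71 and 12.13 with hCG alone. CLMP at day 15 read 9.48, 9.49, 9.70 and 8.35 with hCG+TRL+R5020, 9.43, 8.92, 9.57 and 8.78 with hCG+TRL, and 10.15, 10.15, 9.95, 9.64 and 10.08 with hCG alone. CLMP is a junction-associated adhesion molecule. With hCG alone and with hCG+TRL all day 10 arrays lay above all untreated arrays, while hCG+TRL+R5020 replicate 4 lay inside the untreated range. In set 2 its differences of 1.11 and then -1.62 did not pass.

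MYOM1 read between 8.39 and 9.79 in the 8 untreated arrays (median 9.08). MYOM1 at day 10 read 11.75, 10.94, 11.14 and 9.78 with hCG+TRL+R5020, 11.97, 10.74, 12.29 and 10.64 with hCG+TRL, and 11.92, 8.80, 11.58 and 11.58 with hCG alone. MYOM1 at day 15 read 7.87, 8.41, 8.30 and 7.64 with hCG+TRL+R5020, 8.54, 8.08, 8.26 and 7.59 with hCG+TRL, and 8.25, 7.77, 8.27, 7.62 and 8.12 with hCG alone. MYOM1 is myomesin, a protein of the M-band in the sarcomere of striated muscle. Replicate 2 of hCG alone and replicate 4 of hCG+TRL+R5020 lay inside the range of the 8 untreated arrays, and the other 10 treated arrays of day 10 lay above it. In set 2 MYOM1 was higher with hCG+TRL+R5020 at day 10 than in untreated tissue, by 3.62-fold (log2 difference 1.86 ± 0.35, adjusted p = 0.039). The call of MYOM1 ended without untreated replicate 6 or 9, day 10 hCG+TRL+R5020 replicate 1, 2 or 3, day 15 hCG+TRL replicate 1 or 2 or day 15 hCG+TRL+R5020 replicate 2 or 3 (adjusted p from 0.051 to 0.11). MYOM1 was lower at day 15 than at day 10 with hCG+TRL+R5020, by 6.53-fold (log2 difference -2.71 ± 0.38, adjusted p = 0.0056). Other muscle-type genes of the list were MYH7B, a myosin heavy chain gene, which fell between the days (-0.98 ± 0.17, adjusted p = 0.016), and ACTN2, an alpha-actinin gene of the Z-disc, which did not pass (-0.99).

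PRICKLE2 read between 7.29 and 9.19 in the 8 untreated arrays (median 8.07). PRICKLE2 at day 10 read 7.80, 7.97, 8.51 and 7.61 with hCG+TRL+R5020, 8.71, 7.89, 8.10 and 8.88 with hCG+TRL, and 8.01, 8.33, 8.58 and 8.85 with hCG alone. PRICKLE2 at day 15 read 7.50, 6.36, 6.20 and 6.40 with hCG+TRL+R5020, 8.05, 7.78, 7.39 and 6.51 with hCG+TRL, and 7.23, 6.29, 6.55, 7.65 and 7.13 with hCG alone. PRICKLE2 is a gene of planar cell polarity. The untreated arrays of set 2, at 9.01, 8.22, 9.19 and 8.70, were above those of set 1, at 7.91, 7.29, 7.58 and 7.77, and in set 2 the day 10 difference was -0.81 (unadjusted p = 0.0163). At day 15 PRICKLE2 was lower with hCG+TRL+R5020 than in untreated tissue, by 4.27-fold (log2 difference -2.09 ± 0.32, adjusted p = 0.0091). The tight junction gene CLDN3 had differences of -0.01 at day 10 and -1.40 between the days, and neither passed. Its untreated arrays read 11.02, 11.19, 10.99 and 11.23 in set 2, all above set 1 at 10.19, 9.91, 10.96 and 10.27. C1QTNF1, UBA1, ABTB2 and LOC697670 were likewise higher in every untreated array of set 2 than in set 1, and DAPL1 and MIA2 lower. These are examples, and no count over all genes was made. The part of such shifts in the day 10 differences was not tested. BAIAP2L1 and PARD6A did not pass in any of the 5 comparisons.

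Genes with germ cell or cilium roles numbered 4, and 2 of them fell between the days. TDRD9 read between 6.83 and 7.55 in the 8 untreated arrays (median 7.05). TDRD9 at day 10 read 8.83, 7.92, 8.20 and 7.54 with hCG+TRL+R5020, 8.68, 7.25, 9.00 and 7.29 with hCG+TRL, and 9.05, 9.21, 8.92 and 9.63 with hCG alone. TDRD9 at day 15 read 5.55, 5.68, 5.57 and 5.28 with hCG+TRL+R5020, 5.17, 5.54, 5.06 and 5.44 with hCG+TRL, and 5.69, 5.55, 5.56, 5.58 and 5.73 with hCG alone. TDRD9 is an RNA helicase known from the piRNA pathway of mouse germ cells. Every day 15 array lay at or below 5.73 log2 units, under the median of all values, and every untreated array at or above 6.83. TDRD9 was lower at day 15 than at day 10 with hCG+TRL+R5020, by at least 3.82-fold, counted from the median of all values (log2 difference -2.52 ± 0.24, adjusted p = 0.00064). With hCG+TRL TDRD9 was lower at day 15 than in untreated tissue, by at least 1.85-fold, counted from the median of all values (log2 difference -1.82 ± 0.24, adjusted p = 0.0015). At day 15 TDRD9 was lower with hCG+TRL+R5020 than in untreated tissue, by at least 1.85-fold, counted from the median of all values (log2 difference -1.47 ± 0.24, adjusted p = 0.013). The call of TDRD9 ended without day 15 hCG+TRL+R5020 replicate 1 or 2 (adjusted p from 0.05 to 0.061). DNAAF1, which helps assemble ciliary dynein arms, fell as well (-1.65 ± 0.28, adjusted p = 0.015). MEIG1, required for spermatid maturation in mice, and the meiotic kinase gene AURKC did not pass.

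Genes of cell stress, growth arrest and death numbered 4, and 1 rose at day 10 and 3 fell between the days. DAPL1 read between 6.77 and 8.96 in the 8 untreated arrays (median 7.31). DAPL1 at day 10 read 10.43, 8.01, 7.74 and 8.19 with hCG+TRL+R5020, 8.43, 8.78, 10.18 and 7.09 with hCG+TRL, and 11.03, 10.12, 8.84 and 10.72 with hCG alone. DAPL1 at day 15 read 5.58, 6.32, 5.73 and 5.64 with hCG+TRL+R5020, 4.60, 4.95, 5.30 and 5.20 with hCG+TRL, and 6.52, 6.06, 7.25, 5.95 and 7.25 with hCG alone. DAPL1 is related to the death-associated protein DAP. With hCG+TRL+R5020 replicate 1 was the only array within the range of hCG alone at day 10, and all day 15 arrays lay below all set 1 untreated arrays. DAPL1 was lower at day 15 than at day 10 with hCG+TRL+R5020, by at least 5.3-fold, counted from the median of all values (log2 difference -2.72 ± 0.49, adjusted p = 0.021). The call of DAPL1 ended without day 15 hCG+TRL+R5020 replicate 1 (adjusted p = 0.1). With hCG+TRL DAPL1 was lower at day 15 than in untreated tissue, by at least 1.75-fold, counted from the median of all values (log2 difference -2.04 ± 0.49, adjusted p = 0.027). The call of DAPL1 ended without untreated replicate 6 or 9 or day 15 hCG+TRL replicate 1, 2 or 3 (adjusted p from 0.053 to 0.1). SARM1, an NAD-cleaving enzyme of axon degeneration, and NIBAN2 also fell (-1.39 ± 0.25, adjusted p = 0.02, and -1.10 ± 0.18, adjusted p = 0.015). GADD45B, a stress-induced growth arrest gene, had differences of 1.32 and then -1.29 that did not pass.

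Genes of transcription numbered 5, and none passed at day 10 or between the days. TOX2 read between 6.81 and 8.92 in the 8 untreated arrays (median 8.22). TOX2 at day 10 read 8.89, 7.88, 8.92 and 7.36 with hCG+TRL+R5020, 8.52, 7.38, 8.29 and 6.83 with hCG+TRL, and 9.13, 8.88, 8.99 and 8.66 with hCG alone. TOX2 at day 15 read 6.44, 7.52, 6.23 and 5.82 with hCG+TRL+R5020, 6.48, 5.96, 6.42 and 5.75 with hCG+TRL, and 6.18, 6.07, 6.55, 6.68 and 6.78 with hCG alone. TOX2 is an HMG-box transcription factor. In set 2 the day 10 arrays overlapped the untreated arrays (-0.27), and no treated array of day 10 with TRL lay above the highest untreated array. With hCG+TRL TOX2 was lower at day 15 than in untreated tissue, by 4.73-fold (log2 difference -2.24 ± 0.39, adjusted p = 0.0057). At day 15 TOX2 was lower with hCG+TRL+R5020 than in untreated tissue, by 3.49-fold (log2 difference -1.80 ± 0.39, adjusted p = 0.043). The call of TOX2 ended without untreated replicate 6, 8 or 9, day 10 hCG+TRL+R5020 replicate 2, day 15 hCG+TRL replicate 1, 2 or 3 or day 15 hCG+TRL+R5020 replicate 1 or 3 (adjusted p from 0.054 to 0.17). The others were HES2, ZFAT, ARNTL, a transcription factor of the circadian clock, and GREB1, known as an estrogen-induced gene.

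Genes of RNA and protein modification numbered 7, of which 2 rose at day 10 and 3 fell between the days. RNF214 read between 7.63 and 8.27 in the 8 untreated arrays (median 8.03). RNF214 at day 10 read 9.11, 8.95, 8.83 and 8.41 with hCG+TRL+R5020, 9.16, 9.02, 10.13 and 9.15 with hCG+TRL, and 8.98, 8.94, 9.12 and 9.39 with hCG alone. RNF214 at day 15 read 7.45, 7.47, 7.60 and 6.86 with hCG+TRL+R5020, 7.46, 7.41, 7.50 and 6.85 with hCG+TRL, and 7.16, 7.16, 7.22, 7.41 and 7.20 with hCG alone. RNF214 has a RING finger, the domain of many ubiquitin ligases. All 12 treated arrays of day 10 lay above all 8 untreated arrays, and all 13 arrays of day 15 lay below them. The arrays that chose the genes are among these. In set 2 RNF214 was higher with hCG+TRL+R5020 at day 10 than in untreated tissue, by 1.73-fold (log2 difference 0.79 ± 0.14, adjusted p = 0.03). The call of RNF214 ended without untreated replicate 6, 8 or 9 or day 10 hCG+TRL+R5020 replicate 1, 2 or 3 (adjusted p from 0.053 to 0.091). RNF214 was lower at day 15 than at day 10 with hCG+TRL+R5020, by 2.49-fold (log2 difference -1.32 ± 0.15, adjusted p = 0.0015). With hCG+TRL RNF214 was lower at day 15 than in untreated tissue, by 1.49-fold (log2 difference -0.57 ± 0.15, adjusted p = 0.042). The call of RNF214 ended without untreated replicate 6, 7 or 9, day 10 hCG+TRL+R5020 replicate 2 or 3, day 15 hCG+TRL replicate 1, 2 or 3 or day 15 hCG+TRL+R5020 replicate 1, 2 or 3 (adjusted p from 0.05 to 0.14). UBA1, which starts the ubiquitin cascade, fell between the days (-0.59 ± 0.115, adjusted p = 0.028). CMTR1, which methylates the messenger RNA cap, RCL1, which acts in ribosomal RNA processing, and the kinase gene TP53RK did not pass in any of the 5 comparisons. DDX60 rests on 1 probe set, and its other probe set above the filter was lower with hCG alone at day 10 (-1.16 against untreated replicates 1 to 4).

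ANKRD22 read between 5.79 and 7.41 in the 8 untreated arrays (median 6.54). ANKRD22 at day 10 read 8.10, 6.89, 8.00 and 6.77 with hCG+TRL+R5020, 9.00, 6.08, 8.77 and 7.32 with hCG+TRL, and 8.92, 7.65, 8.66 and 9.41 with hCG alone. ANKRD22 at day 15 read 5.77, 5.69, 5.58 and 5.82 with hCG+TRL+R5020, 6.05, 5.92, 6.46 and 6.00 with hCG+TRL, and 5.65, 6.02, 5.78, 5.98 and 5.55 with hCG alone. ANKRD22 codes for an ankyrin repeat protein. Every day 15 array but 1 read below the median of all values. ANKRD22 was lower at day 15 than at day 10 with hCG+TRL+R5020, by at least 2.39-fold, counted from the median of all values (log2 difference -1.76 ± 0.34, adjusted p = 0.028). The call of ANKRD22 ended without day 10 hCG+TRL+R5020 replicate 1 or 3 or day 15 hCG+TRL+R5020 replicate 1, 2 or 3 (adjusted p from 0.067 to 0.1). The other named genes with no role given here were ABTB2, MS4A3, SMIM3, TCAF2, TMEM120A and TMEM63C. Their day 10 differences in set 2 were between -0.055 and 0.88, and none passed in any of the 5 comparisons. Of the 11 genes with only a LOC symbol, LOC699013 fell between the days (-1.76 ± 0.25, adjusted p = 0.007), and 10 were above 0 at day 10.

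**Figure D4:**
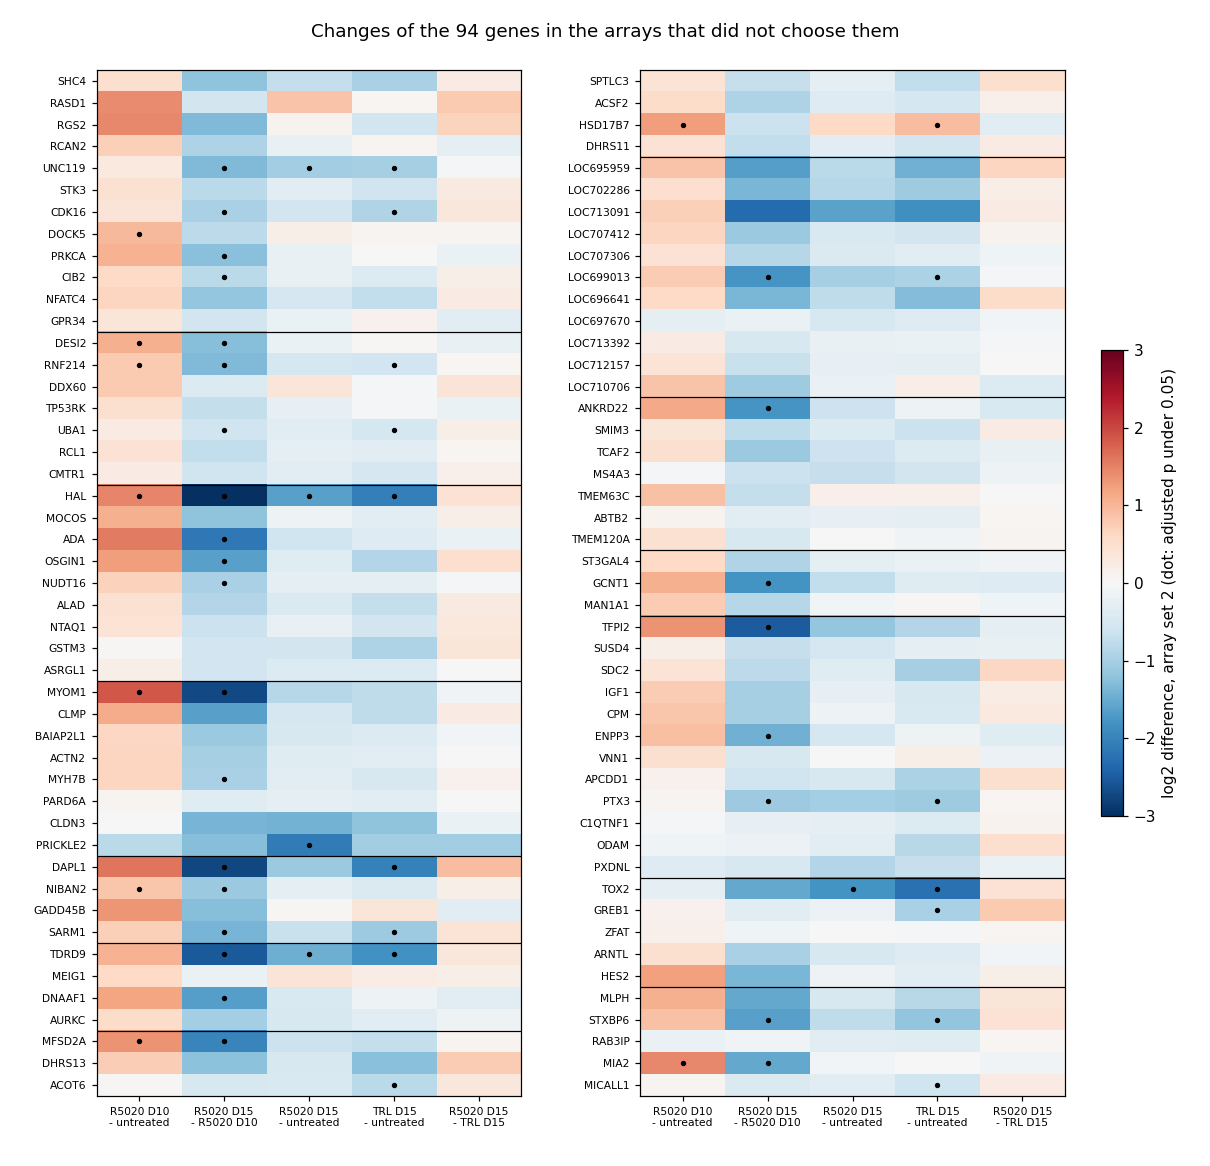
Log2 differences of the 94 genes in the 5 comparisons of array set 2, with the group named first minus the group named second and D10 and D15 for the days. Lines part the role groups, and dots mark an adjusted p under 0.05. The first column is mostly above 0, the second is below 0 for all 94 genes, and the last column has no dots.

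At day 10 the hCG+TRL arrays share their array set with the arrays that chose the genes, so values against hCG alone or untreated replicates 1 to 4 are a description with no test. The choice took genes that were high in those hCG arrays and low in those untreated arrays. The titles of the hCG+TRL samples also lack a reanalysis mark that those of the choosing arrays of day 10 bear. Against hCG alone the 94 genes had a median difference of -0.50, with 12 above 0 and 82 below, where all genes had -0.01. Against untreated replicates 1 to 4 the median was 0.65, with 91 above 0, where all genes had 0.02. AURKC, APCDD1 and RAB3IP were the 3 below 0. The hCG+TRL mean lay between the other 2 for 79 of the 94 genes (84%, background 22.4%), a place that the choice of genes far apart in those 2 groups favours. In 35 of them it was at least 0.8 above untreated (37.2%, background 1.2% of 14132 genes). All 4 hCG+TRL arrays lay above all 4 untreated arrays for 29 genes (30.9%, background 4.89%), and all 4 lay below all 4 hCG arrays for 13 (13.8%, background 3.4%).

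The differences between hCG+TRL and hCG alone at day 10 were spread widely, with no test of whether genes differ in them. Those furthest below hCG alone were LOC695959 (-1.78), AURKC (-1.61), LOC707412 (-1.57) and DAPL1 (-1.56). ADA (0.72), MYOM1 (0.44), DNAAF1 (0.40) and RGS2 (0.39) were above it. HAL (0.01), STXBP6 (0.04), RASD1 (0.05), GADD45B (-0.05) and HSD17B7 (-0.07) were at nearly the same level. For AURKC the 4 hCG arrays themselves varied widely (SD 1.8), and for MYOM1 1 hCG array was far below the others. In MFSD2A, TDRD9, TFPI2 and ANKRD22, whose values are given above, hCG+TRL replicates 2 and 4 were the low ones. The day 10 arrays with hCG+TRL+R5020 and those with hCG+TRL lie in different array sets and are linked only through the untreated arrays of each set. Untreated replicates 1 to 4 chose the genes, so no test of adding R5020 at day 10 was made.

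**Figure D5:**
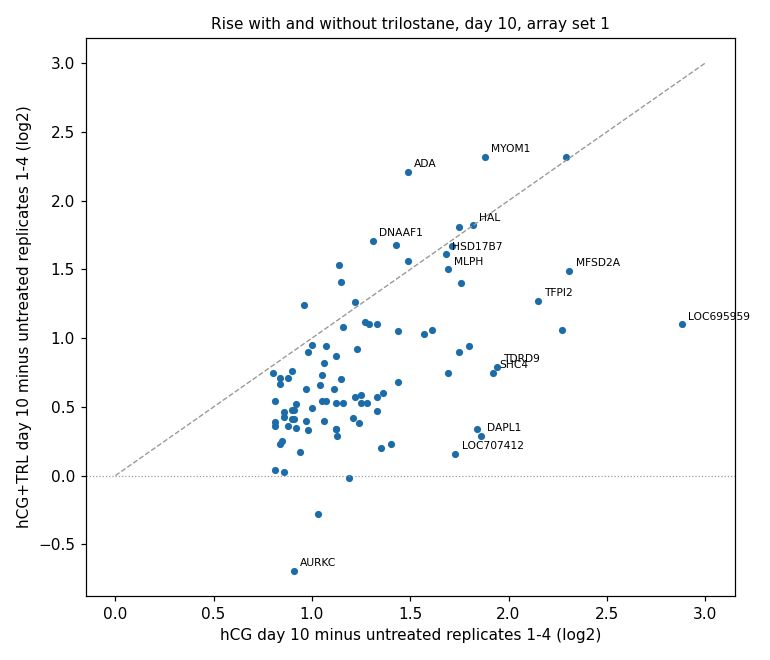
Difference from untreated replicates 1 to 4 at day 10, in log2 units, with hCG+TRL (vertical axis) and with hCG alone (horizontal axis) for the 94 genes, all in array set 1. The dashed line marks equal differences. Of the 94 points, 82 lie below it, and ADA, MYOM1 and DNAAF1 lie above it. The arrays on the horizontal axis chose the genes.

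At day 15 the addition of R5020 to hCG+TRL could be tested in set 2, and none of the 94 genes passed in either direction. No probe set of the whole array passed in this comparison (background 0% in each direction), with 585 of 10504 genes at an unadjusted p under 0.05 by limma. Without hCG+TRL replicate 2, 13 probe sets were higher and 65 lower, none of them of the 94 genes. Among the 94, 58 differences were above 0 and 36 below, with a median of 0.09 where all genes had 0.02. At an unadjusted p under 0.05, 3 genes differed, named here after their values were seen. GREB1 averaged 11.23 ± 0.26 with R5020 and 10.44 ± 0.35 without it (SD, n = 3 each), a log2 difference of 0.79 with a 95% interval of 0.19 to 1.38. PRICKLE2 averaged 6.69 ± 0.71 with R5020 and 7.74 ± 0.33 without it, a difference of -1.05 (-1.78 to -0.32). ACOT6 differed by 0.34 (0 to 0.68). For HAL the interval was -0.15 to 1.02 and for MFSD2A -0.41 to 0.57. A missed threshold does not show that R5020 left these genes alike. All 10 macrophage markers were below 0 with R5020 (median -0.86, none passing), and their part was not tested.

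Against untreated tissue, the day 15 groups of set 2 ended below the starting level for most of the genes. With hCG+TRL+R5020, 5 genes were lower (5.32%, background 0.752%) and 0 were higher (background 0.628%). Of the 94 differences 85 were below 0 (median -0.38), against 50% of all genes (median 0). At an unadjusted p under 0.05 by limma, 1 was higher and 27 lower, against 1541 of all 10504 genes in either direction. The 5 were HAL, TDRD9, UNC119, TOX2 and PRICKLE2. The count was 2 without day 15 replicate 1 of that group, 3 without its replicate 2, and 3 without untreated replicate 6 or untreated replicate 8. HSD3B2 and NR5A2 were the 2 luteal markers also lower, and the 7 markers of cycling cells were all below 0 (median -0.84, none passing). All 10 macrophage markers were above 0 (median 0.62, none passing). Their part in the result was not tested.

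With hCG+TRL, 15 genes were lower (16%, background 3.72%) and 1, HSD17B7, was higher (1.06%, background 3.21%). Of the 94 differences 81 were below 0 (median -0.47), against 54% of all genes (median -0.02). At an unadjusted p under 0.05 by limma, 39 of the 94 were lower and 1 higher, against 2381 of all 10504 genes in either direction. The 15 included HAL, TDRD9, STXBP6, TOX2, ACOT6, UNC119, DAPL1 and RNF214 described above. The other 7 were CDK16 (-0.91 ± 0.19), PTX3 (-1.07 ± 0.24), UBA1 (-0.52 ± 0.115), SARM1 (-1.08 ± 0.25, at least 2.04-fold), MICALL1 (-0.59 ± 0.15), LOC699013 (-0.96 ± 0.25) and GREB1 (-0.97 ± 0.26), with adjusted p-values between 0.013 and 0.042. The count of lower genes was 7 without untreated replicate 6, and 8, 9 and 8 without hCG+TRL replicates 1, 2 and 3. The call of HSD17B7 was lost without untreated replicate 6 or 9 or hCG+TRL replicate 2 or 3, which left 0. Markers of other cells also moved in this comparison. Of 10 macrophage markers 9 were higher (median 1.46), and their mean per array was 10.17 to 10.66 with hCG+TRL at day 15 against 8.64 to 9.76 in untreated tissue of set 2, with 1 of the 11 measured below the median of all values. Outside set 2, this mean was 8.63 in day 15 hCG+TRL replicate 4 and 8.84 to 10.11 in untreated replicates 1 to 4. Of 7 markers of cycling cells 6 were lower (median -1), and 3 of 9 luteal markers were lower (FDXR, HSD3B2 and NR5A2). The part of these shifts in the result was not tested. None of the 94 genes is on any of the 10 marker lists.

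The 3 day 15 arrays of set 3 are described only, since each is near-identical to another array. Their mean deviations over the 94 genes were -0.88 with hCG+TRL+R5020, -0.91 with hCG+TRL and -0.45 with hCG alone, all below the lowest untreated array at -0.36. The hCG+TRL+R5020 and hCG+TRL arrays among them are the near-identical pair, and the array with hCG alone is near-identical to replicate 5, which chose the genes.

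The 94 genes are 0.665% of the 14132 genes with a single symbol, and 5 of 9 gene lists of luteal and gonadotropin biology held 1 or 2 of them. Genes set aside by name include FST and IRS2, which are on these lists, and others were set aside by symbol family. Of 44 measured genes in a list of immediate cyclic AMP and luteinizing hormone responses, 1 is a member, RGS2. In set 2 none of 40 tested genes of that list was higher at day 10 and 4 were lower (CITED2, EGR2, JUNB and NR4A1). Over all genes tested, 0.352% were higher and 0.362% lower in this comparison, so a list of this size would hold few calls. Of 35 measured genes of the ovulatory response 2 are members, PTX3 and TFPI2. Of 29 tested, 0 were higher at day 10 and 2 lower, against the same background. Of 27 genes of steroid and sterol synthesis 1 is a member, HSD17B7, and it was 1 of 2 that were higher at day 10 (background 0.352%). Of the 27, 24 were above 0 (median 0.42), against 52.1% of all genes (median 0.01). IGF1 is the member among 43 measured growth factors and secreted regulators, and GADD45B among 24 progestin and glucocorticoid response genes. No member is on the lists for glucose metabolism (37 measured), protein folding (29), cell division (24) or ribosome biogenesis (40).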

How the data were processed

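The deposited log2 intensity values of 33 one-colour Affymetrix Rhesus arrays were used as the authors deposited them (2.6 to 15.12, array medians 6.13 to 6.32). How they were background corrected, summarized and normalized is not stated in the sources used here. Of 52865 probe sets, 158 control probe sets were left out, 24956 carry 1 gene symbol in the platform annotation and 361 carry several. A probe set was tested where 4 or more arrays exceeded 6.18, the median of all values (28917). One limma 3.58.1 fit in R 4.3.3 (lmFit, eBayes with trend, two-sided, 10 residual degrees of freedom, adjusted p under 0.05) took the 14 arrays of set 2. The number of arrays limits the precision. The step was tested on simulated data. The 94 genes, the gene lists and the role groups were chosen with earlier results of these data known, and roles were assigned by hand after the genes were known. Values in every array are given for the 12 named genes with the largest smaller-of rise and fall and for up to 6 genes with the smallest adjusted p per direction and comparison. Others serve as examples of a group. A fold against a group whose mean was under 6.18 was counted from 6.18 and is a lower bound. Alternatives were array centring, quantile normalization, other filters, the mean of all probe sets of a gene, no trend, all 33 arrays with array set as a term, each array left out, and the replicate number as a block.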

Additional observations from a re-analysis of the deposited data

Results flagged for a closer look

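Among 154 pairs of a gene and a group, for the 22 genes with values in every array, 14 had 1 array far from the others of its group by Dixon's ratio. Chance marks about 1 in 20 such groups. All values are log2 intensities. At day 10 with hCG+TRL+R5020, DAPL1 read 10.43 in replicate 1 (others 7.74 to 8.19), and in replicate 4 ADA read 10.44 (others 11.73 to 11.98) and STXBP6 11 (others 11.43 to 11.46). At day 10 with hCG+TRL, SHC4 read 6.40 in replicate 2 (others 7 to 7.11) and RNF214 10.13 in replicate 3 (others 9.02 to 9.16). With hCG alone at day 10, MYOM1 read 8.80 in replicate 2 (others 11.58 to 11.92). In untreated replicate 9 DOCK5 read 10.10 (others 10.4 to 10.64).

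At day 15 with hCG+TRL+R5020, replicate 4 read 8.35 for CLMP (others 9.48 to 9.7) and 9.51 for UNC119 (others 9.86 to 9.93), and replicate 1 read 7.50 for PRICKLE2 (others 6.2 to 6.4). With hCG+TRL, replicate 4 read 6.85 for RNF214 (others 7.41 to 7.5). With hCG alone, MLPH read 8.74 in replicate 1 (others 7.62 to 7.85), DOCK5 10.02 in replicate 2 (others 10.65 to 10.85) and RNF214 7.41 in replicate 4 (others 7.16 to 7.22).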

How the results depend on the processing

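For 34 named gene results no alternative changed the direction, 621 of 727 values under alternatives kept their side of the threshold and the rest lost it. Counts of the 94 genes that left the range within 1.5 times the reported count were as follows. At day 10, 14 genes were higher with hCG+TRL+R5020 than in untreated tissue (9 reported) with the mean of all probe sets of a gene, and between 0 and 14 with 1 array left out. With all 33 arrays and array set as a term, 43 genes were lower at day 15 than at day 10 under hCG+TRL+R5020 (27 reported), and 9 were lower at day 15 than in untreated tissue (5 reported). That alternative adds arrays that chose the genes. With 1 array left out, these counts ran between 12 and 45 and between 2 and 7. For hCG+TRL at day 15 against untreated tissue, 0 to 1 were higher (1 reported) and 7 to 19 lower (15 reported). The replicate block over the treated groups of set 2 gave 32 lower genes between the days, of which 21 were among the 27, and 0 for R5020 against none at day 15. Over the whole array, that comparison of 0 calls gave 13 probe sets higher and 65 lower without hCG+TRL replicate 2, 1 and 1 without untreated replicate 9, and 0 and 2 with no filter. Both this block and a check of pairing matched arrays by the replicate number of their source labels. Deviations of arrays so matched correlated at -0.206, -0.12 and -0.131 between the days, so these numbers are not shown to pair samples there. Between the day 15 groups they correlated at 0.07, 0.031 and 0.17. Some day 15 hCG+TRL samples have a title number other than this replicate number. The day 15 correlations therefore cannot decide on pairing, and the block has the same limit. The rule itself gave 73 genes with the mean of all probe sets, and at least 86 under its other alternatives. The scalings moved the median of all probe sets to between -0.018 and 0.016 log2 units. The cause of these differences was not tested. Signal near the median of all values limits TDRD9, HAL, DAPL1, GCNT1, ENPP3, NUDT16, SARM1 (with hCG+TRL) and ANKRD22 at day 15 to lower bounds.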
